A study of Mus musculus with 16 samples.

Results

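Brain endothelial genes were followed in RNA from laser-captured cells of the embryonic mouse cortical plate. The 10 genes were taken by symbol from the count table as markers of brain blood vessels: Cdh5, Cldn5, Pecam1, Flt1, Kdr, Tek, Tie1, Esam, Slc2a1 and Mfsd2a. All 10 were among the 24539 genes of the table, all 10 had counts in each of the 16 libraries, and all 10 were among the 13224 genes that passed the filter on low counts. The rule itself uses the symbols alone.

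The material came from CD1 embryos of genotype GAD67-GFP+/- at embryonic day 14.5, in which green fluorescent protein reports the GABA-producing enzyme GAD67. Dams of the cypermethrin non-stressed group (4 libraries) received 10 mg/kg alpha-cypermethrin, a pyrethroid insecticide, by gavage on gestational days 11 to 14. Dams of the vehicle stressed group (4 libraries) received corn oil and were held in restraint under bright light for 45 min, 3 times a day, on gestational days 12 and 13, with a last session on day 14. Dams of the cypermethrin stressed group (4 libraries) received both exposures, and dams of the vehicle non-stressed group (4 libraries) received corn oil alone. All groups were gavaged a last time 90 min before euthanasia, and restraint ended 15 min before it. About 1000 GFP-positive cells were cut from 10 tissue sections of 1 embryo per litter, each labelled male, and the labels call them neural progenitor cells. A reporter under GAD67 marks GABAergic cells and not vessels, so the endothelial RNA was read in bulk material that was not sorted for it. In such material fewer cells of a type and less RNA per cell cannot be told apart. Which of the cells in the cuts gave the endothelial counts was not tested.

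Brain endothelial cells line the capillaries and form the blood-brain barrier, which the mouse builds during embryonic life as vessels grow into the neural tube. Vascular endothelial growth factor A, made by neural cells, drives this ingrowth through receptors on the endothelium, while Wnt ligands from neural progenitors turn on barrier genes in the same cells. The barrier itself rests on tight and adherens junctions between the cells, on little vesicle traffic through them, and on transporters that bring in glucose and lipids. The transcription factor ERG and other ETS factors, which bind sites around a GGAA core, and SOX factors of the SOX17 group, which bind motifs such as ACAAAG, are known to act at many endothelial genes.

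RefSeq start sites of GRCm38.p6 gave the 250 bases before the start for 7 of the 10 genes, and 3 of these windows are shown. Flt1 and Mfsd2a were, together with Tie1, the genes whose levels followed the other endothelial genes least, and the window of Tek was the only one with the SOX motif. Most of the Tie1 window lies inside that gene in the GENCODE annotation, where it runs into the first exon, and it is not printed. The window of Slc2a1 and, by a few bases, that of Kdr also reach into their genes as GENCODE places them. All 7 windows are counted below. Lower case is the gene's own strand read 5′ to 3′, and capitals mark each GGAA and its reverse complement TTCC.
Flt1, chr5:147726012-147726261, minus strand: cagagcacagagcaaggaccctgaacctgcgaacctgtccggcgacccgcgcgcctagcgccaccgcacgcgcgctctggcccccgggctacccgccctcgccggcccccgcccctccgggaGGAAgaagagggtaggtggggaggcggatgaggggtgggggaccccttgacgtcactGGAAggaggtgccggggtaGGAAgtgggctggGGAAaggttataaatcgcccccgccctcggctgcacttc
Tek, chr4:94739039-94739288, plus strand: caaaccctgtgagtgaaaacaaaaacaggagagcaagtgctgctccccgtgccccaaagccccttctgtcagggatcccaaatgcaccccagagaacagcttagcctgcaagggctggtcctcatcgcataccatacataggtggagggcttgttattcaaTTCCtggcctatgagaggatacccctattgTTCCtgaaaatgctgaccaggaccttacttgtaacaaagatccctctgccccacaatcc
Mfsd2a, chr4:122961189-122961438, minus strand: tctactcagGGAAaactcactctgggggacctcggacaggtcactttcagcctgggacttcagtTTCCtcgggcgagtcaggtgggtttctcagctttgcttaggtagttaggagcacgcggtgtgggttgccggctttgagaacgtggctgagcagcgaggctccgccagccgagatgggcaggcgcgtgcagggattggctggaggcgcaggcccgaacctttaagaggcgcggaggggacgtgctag
The window of Flt1 held 4 GGAA cores, that of Tek 2 and that of Mfsd2a 2. The windows of Kdr and Tie1 held 4 and 7 cores, and those of Slc2a1 and Cldn5 held 0. A core on either strand was found in 5 of the 7 windows and in 93.4% of all 32851 promoters of the same length, which had a median of 3 matches. The longer ETS motifs CAGGAAG and CCGGAAG, searched on both strands, had a match in 0 of the 7 windows, against 10.8% and 6.91% of all promoters. ACAAAG, also searched on both strands, occurred 26 bases before the start of Tek alone among the 7, against 16.5% of all promoters. The longer ETS motifs each contain the GGAA core and so overlap with it. These matches describe the letters of the windows only, and the GGAA core was chosen after the longer motifs had been seen to have no match.

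Across libraries, total counts ran from 2291283 to 4324129 with a median of 3695782. Values are given below as CPM, counts brought to one common library total, with library sizes scaled by TMM, a method that sets aside the most extreme genes. The 10 genes together took between 0.0177% and 0.0841% of the counts of a library. The 12 interneuron markers summed to 1445 to 2391 CPM per library, the 10 glutamatergic markers to 4479 to 7486 CPM and the 10 endothelial genes to 190 to 914 CPM (189.6 at the lowest), all without correction for gene length. Both extremes of the endothelial sum were libraries of the cypermethrin non-stressed group, replicates 3 and 4. Values without them are given where they were computed. Replicate 1 of the vehicle stressed group went against its male label, with 9521 counts of Xist where each of the other 15 libraries had 26 or fewer, and 1 count over the Y-linked genes.

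Per kilobase of exon, the glucose transporter gene Slc2a1 was the most abundant of the 10 and the VEGF receptor gene Flt1 the least. The levels averaged 37.6 ± 16.4 CPM per kb for Slc2a1, 25.2 ± 9.33 for Cldn5, 18.9 ± 6.98 for Cdh5, 8.25 ± 6.20 for Mfsd2a and 6.93 ± 2.53 for Kdr (SD, n = 16 libraries). They averaged 5.88 ± 4.02 CPM per kb for Tek, 5.70 ± 3.26 for Pecam1, 4.87 ± 2.88 for Esam, 3.78 ± 3.28 for Tie1 and 1.71 ± 0.915 for Flt1 (SD, n = 16 libraries). The top of the order was steady: Slc2a1 stood above Cldn5 in 14 of 16 libraries, Cldn5 above Cdh5 in 13 and Cdh5 above Mfsd2a in 15. In the middle of the order the neighbours changed places. Mfsd2a stood above Kdr in 7 of 16 libraries, Kdr above Tek in 10, Tek above Pecam1 in 9, Pecam1 above Esam in 7 and Esam above Tie1 in 10. Tie1 stood above Flt1 in 13 of 16 libraries. The exon lengths are unions over all GENCODE transcripts, 13504 bases for Flt1 and 1416 bases for Cldn5, so a gene with long unused exons reads low on this scale.

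**Figure D1:**
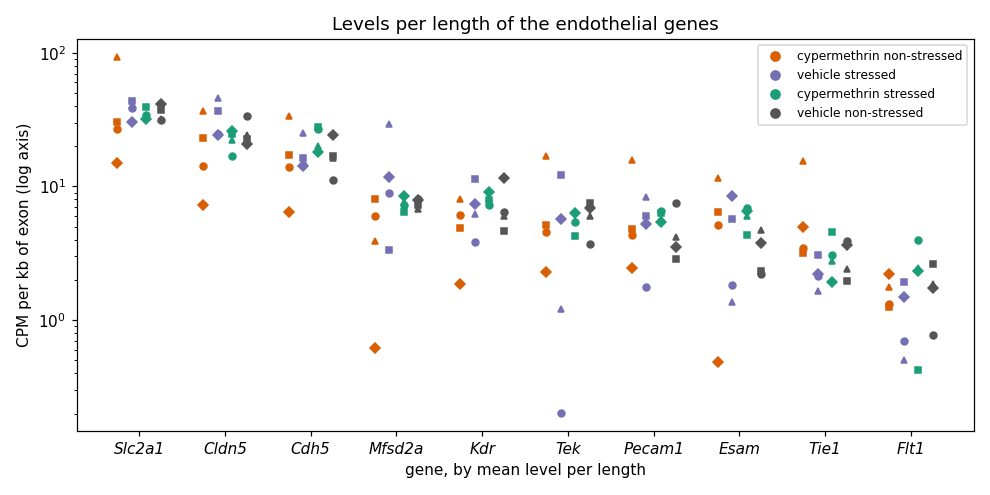
Levels per kilobase of exon (CPM per kb, log axis) of the 10 endothelial genes in the 16 libraries, 1 point per library, coloured by group and with the genes in order of their mean. The means of Slc2a1, Cldn5 and Cdh5 lie above those of the other 7 genes while the ranges of neighbouring genes overlap, and the points of the cypermethrin non-stressed group reach furthest apart for 8 of the 10 genes, Tek and Flt1 being the exceptions.

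Among the junction genes, Cdh5 codes for VE-cadherin, the cadherin of endothelial adherens junctions. It is annotated on chromosome 8, from 104101625 to 104144511 on the plus strand of GRCm38. Cdh5 had 58.8, 72.8, 141 and 27.1 CPM in cypermethrin non-stressed libraries 1 to 4, 60.4, 68.3, 106 and 59.4 CPM in vehicle stressed libraries, 112, 118, 84.1 and 76.8 CPM in cypermethrin stressed libraries, and 47.1, 71.0, 68.6 and 103 CPM in vehicle non-stressed libraries. The cypermethrin stressed libraries all lay above 3 of the 4 vehicle non-stressed ones, and the groups overlapped. The widest range, 5.19-fold, lay within the cypermethrin non-stressed group. A noncoding gene on the other strand overlaps the Cdh5 locus without sharing exon bases.

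Cldn5, the main tight junction claudin of the blood-brain barrier, lies on chromosome 16 from 18776847 to 18778262. Its levels were 20.2, 32.7, 52.1 and 10.3 CPM in cypermethrin non-stressed libraries, 34.7, 51.7, 64.8 and 34.2 CPM in vehicle stressed libraries, 24.0, 34.8, 31.4 and 36.6 CPM in cypermethrin stressed libraries, and 47.5, 32.3, 34.3 and 29.6 CPM in vehicle non-stressed libraries. The highest value was that of vehicle stressed replicate 3, and the lowest that of cypermethrin non-stressed replicate 4. Every pair of groups overlapped.

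Pecam1 codes for CD31, an adhesion molecule of endothelial contacts that leukocytes and macrophages also carry, and lies on chromosome 11 from 106654217 to 106750628. It had 27.0, 29.9, 98.8 and 15.4 CPM in cypermethrin non-stressed libraries, 10.9, 37.3, 52.4 and 32.5 CPM in vehicle stressed libraries, 41.0, 39.7, 35.3 and 33.9 CPM in cypermethrin stressed libraries, and 47.1, 17.9, 26.2 and 22.1 CPM in vehicle non-stressed libraries. Replicate 3 of the cypermethrin non-stressed group stood 2.98-fold above the median of all libraries. The cypermethrin stressed libraries were close together, with a coefficient of variation of 9.10%, against 45.8% in the vehicle non-stressed libraries.

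Esam, an immunoglobulin-type adhesion molecule of endothelial tight junctions, lies on chromosome 9 from 37528078 to 37538319. Its levels were 14.9, 18.5, 32.9 and 1.40 CPM in cypermethrin non-stressed libraries, 5.23, 16.3, 3.92 and 24.5 CPM in vehicle stressed libraries, 19.9, 12.5, 17.2 and 18.7 CPM in cypermethrin stressed libraries, and 6.40, 6.68, 13.6 and 10.8 CPM in vehicle non-stressed libraries. The lowest of these values rests on 3 counts. Of the 4 cypermethrin stressed libraries, 3 lay above every vehicle non-stressed library, and the fourth lay within their range.

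The VEGF receptors Kdr and Flt1 lie on chromosome 5, Kdr from 75932827 to 75978458 and Flt1 from 147561604 to 147726011, both on the minus strand. Kdr codes for VEGFR2, the receptor that carries most of the growth signal of VEGF-A. It had 55.2, 44.1, 73.1 and 16.8 CPM in cypermethrin non-stressed libraries, 34.7, 102, 56.3 and 66.7 CPM in vehicle stressed libraries, 66.2, 71.5, 73.7 and 82.5 CPM in cypermethrin stressed libraries, and 57.9, 42.2, 54.3 and 104 CPM in vehicle non-stressed libraries. The cypermethrin stressed libraries lay close together, with a coefficient of variation of 9.25%, while the vehicle non-stressed ones ranged 2.46-fold around them.

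Flt1 codes for VEGFR1, which binds VEGF-A tightly and signals weakly, and in its soluble form takes VEGF-A away from VEGFR2. It had 17.9, 16.96, 23.9 and 29.9 CPM in cypermethrin non-stressed libraries, 9.51, 26.0, 6.77 and 20.04 CPM in vehicle stressed libraries, 53.5, 5.77, 32.9 and 31.6 CPM in cypermethrin stressed libraries, and 10.4, 35.5, 25.0 and 23.7 CPM in vehicle non-stressed libraries. Both its highest and its lowest value fell in the cypermethrin stressed group, where it ranged 9.27-fold. It was 1 of the 2 genes, with Tie1, that stood above its median in cypermethrin non-stressed replicate 4, where the other 8 endothelial genes stood below theirs.

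The angiopoietin receptors Tek and Tie1 both lie on chromosome 4, Tek from 94739289 to 94874976 and Tie1 from 118471191 to 118490061. Tek codes for TIE2, which binds angiopoietins and steadies vessels, and which some macrophages also carry. It had 21.4, 24.4, 79.4 and 10.7 CPM in cypermethrin non-stressed libraries, 0.951, 57.6, 5.70 and 27.1 CPM in vehicle stressed libraries, 25.7, 20.1, 26.1 and 29.7 CPM in cypermethrin stressed libraries, and 17.5, 35.5, 28.5 and 32.7 CPM in vehicle non-stressed libraries. The vehicle stressed group held both a near absence of Tek, 2 counts in replicate 1, and its second highest level, in replicate 2. That replicate 1 is the library that went against its male label.

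Tie1 codes for a receptor that pairs with TIE2 and tunes its signal. It had 16.9, 15.7, 76.5 and 24.3 CPM in cypermethrin non-stressed libraries, 10.5, 15.0, 8.19 and 10.8 CPM in vehicle stressed libraries, 15.0, 22.6, 13.7 and 9.47 CPM in cypermethrin stressed libraries, and 19.2, 9.62, 11.9 and 18.0 CPM in vehicle non-stressed libraries. Replicate 3 of the cypermethrin non-stressed group stood 5.09-fold above the median of all libraries, the farthest of any of the 10 genes in that library. The other 3 libraries of that group overlapped with the vehicle non-stressed ones.

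The barrier transporters Slc2a1 and Mfsd2a also lie on chromosome 4, Slc2a1 from 119108711 to 119137983 and Mfsd2a from 122946850 to 122961188. Slc2a1 codes for GLUT1, the glucose transporter of brain capillaries, which many other cells use as well. It had 94.8, 107, 328 and 52.3 CPM in cypermethrin non-stressed libraries, 136, 154, 140.3 and 107 CPM in vehicle stressed libraries, 120.5, 138, 121 and 113 CPM in cypermethrin stressed libraries, and 109.8, 132, 112 and 144 CPM in vehicle non-stressed libraries. Outside the cypermethrin non-stressed group it was among the steadiest of the 10, with coefficients of variation of 14.7% in vehicle stressed, 8.76% in cypermethrin stressed and 13.3% in vehicle non-stressed libraries. A microRNA gene lies within the Slc2a1 locus on the same strand and shares no exon bases with it.

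Mfsd2a codes for a transporter of lysophospholipids that carry omega-3 fatty acids into the brain, and it holds down vesicle traffic across the endothelium. It had 13.6, 18.2, 8.77 and 1.40 CPM in cypermethrin non-stressed libraries, 19.98, 7.52, 66.2 and 26.4 CPM in vehicle stressed libraries, 16.5, 14.5, 17.2 and 19.2 CPM in cypermethrin stressed libraries, and 18.2, 16.3, 15.1 and 17.8 CPM in vehicle non-stressed libraries. The lowest value rests on 3 counts. The cypermethrin stressed and vehicle non-stressed libraries lay within a narrow band, with coefficients of variation of 11.4% and 8.28%, while the 2 groups with a single exposure spread away from it in opposite directions on average, 10.5 ± 7.18 CPM in cypermethrin non-stressed and 30.0 ± 25.4 CPM in vehicle stressed libraries (SD, n = 4 each). The vehicle stressed mean leaned on replicate 3, at 66.2 CPM, while replicate 2 of that group, at 7.52 CPM, lay below the band.

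**Figure D2:**
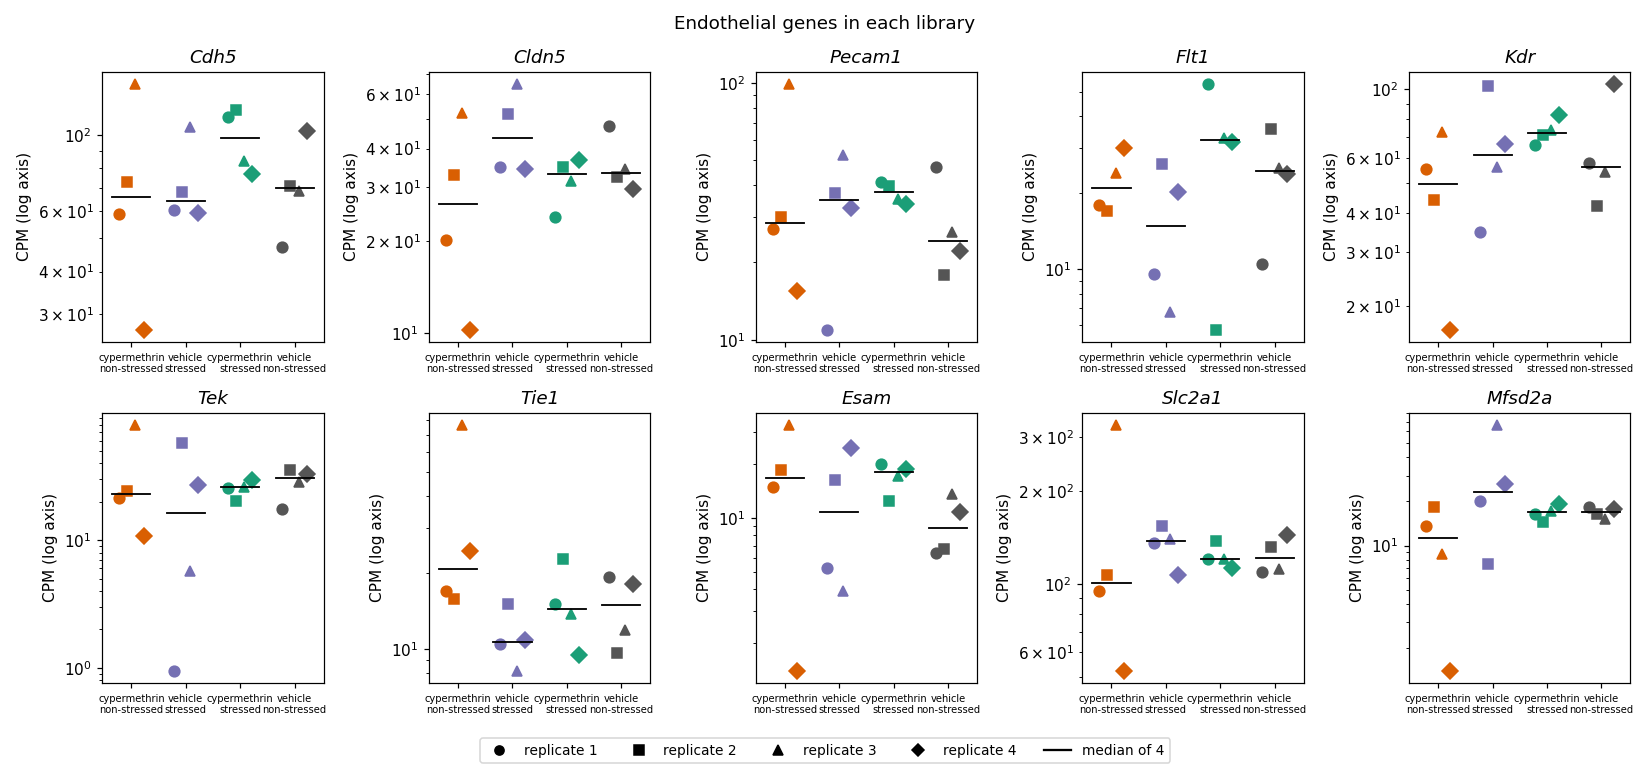
Level of each endothelial gene (CPM, log axis) in the 4 groups, 1 symbol per library with the shape giving the replicate, and a line at the median of 4. Cypermethrin non-stressed replicate 3 (triangle) is the highest point for 6 genes and replicate 4 (diamond) the lowest for 6 genes, while the 4 cypermethrin stressed points lie close together except for Flt1 and Tie1.

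The spread between libraries had a pattern of its own. Cypermethrin non-stressed replicate 3 was the highest of 16 libraries for 6 of the 10 genes, namely Cdh5, Pecam1, Tek, Tie1, Esam and Slc2a1, and its Mfsd2a level was 0.520 of the median over libraries. Replicate 4 of the same group was the lowest for 6 genes, namely Cdh5, Cldn5, Kdr, Esam, Slc2a1 and Mfsd2a, while its Flt1 and Tie1 levels were 1.26-fold and 1.62-fold the median. Vehicle stressed replicate 3 was the highest for Cldn5 and Mfsd2a and the lowest for Tie1. No library was high or low for all 10 genes.

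Summed over the 10 genes, levels were 341, 380, 914 and 190 CPM (379.9 and 189.6 for the second and the last) in cypermethrin non-stressed libraries. The sums were 323, 536, 510.4 and 408 CPM in vehicle stressed libraries, 495, 477, 452 and 451 CPM in cypermethrin stressed libraries, and 381, 399, 389 and 505 CPM in vehicle non-stressed libraries. Medians were 360.3, 459, 465 and 394 CPM for the 4 groups in that order. The cypermethrin stressed sums lay within 451 to 495 CPM, and the cypermethrin non-stressed sums reached to both sides of all other libraries.

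Markers of the cells that accompany vessels moved with the endothelial sum in the library that stood highest. The 12 pericyte markers, cells that wrap the capillary wall, summed to 732 CPM in cypermethrin non-stressed replicate 3 and to 224 CPM in replicate 4. Over the groups their sums ran from 189.7 to 732 CPM in cypermethrin non-stressed, 119 to 319.7 CPM in vehicle stressed, 313 to 344 CPM in cypermethrin stressed and 168 to 359 CPM in vehicle non-stressed libraries. All 12 pericyte markers had counts, 8 of the 12 passed the filter, and Rgs5 had the highest CPM, 124 on average.

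The 12 macrophage markers summed to 706 CPM in cypermethrin non-stressed replicate 3 and 71.9 CPM in replicate 4, the highest and the lowest of all libraries. Their range was 71.9 to 706 CPM in cypermethrin non-stressed, 168 to 295 CPM in vehicle stressed, 186 to 202 CPM in cypermethrin stressed and 79.8 to 210.3 CPM in vehicle non-stressed libraries. All 12 passed the filter, with Mrc1 at 68.3 CPM and Lyve1 at 42.8 CPM on average. The part of macrophages and pericytes in the high Pecam1, Tek and Tie1 levels of replicate 3 was not tested.

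Red cell genes did not follow this pattern: the 11 erythroid markers in the table summed to 108 CPM in cypermethrin non-stressed replicate 3, inside the range of 36.0 to 305 CPM over all libraries. The adult globin genes Hba-a1, Hba-a2, Hbb-bt and Hbb-bs were at 0 counts in every library, while the embryonic Hbb-y averaged 92.9 CPM. How reads that match several genes were counted was not given, so these 0 counts do not show that adult globin RNA was absent. The erythroid sum averaged 145 CPM and thus leaned on Hbb-y. Meningeal fibroblast markers, cells of the brain's coverings, summed to 2652 to 3975 CPM in cypermethrin non-stressed, 2228 to 3162 CPM in vehicle stressed, 3024 to 3761 CPM in cypermethrin stressed and 2616 to 3788 CPM in vehicle non-stressed libraries, all 12 of them tested. Nnat alone averaged 1375 CPM, beside 3124 CPM for the sum of the 12. The sum thus leans on that gene and is no measure of the fibroblasts by itself. The 12 interneuron markers summed to 1810.2 CPM in cypermethrin non-stressed replicate 3 and were highest, 2391 CPM, in replicate 4.

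**Figure D3:**
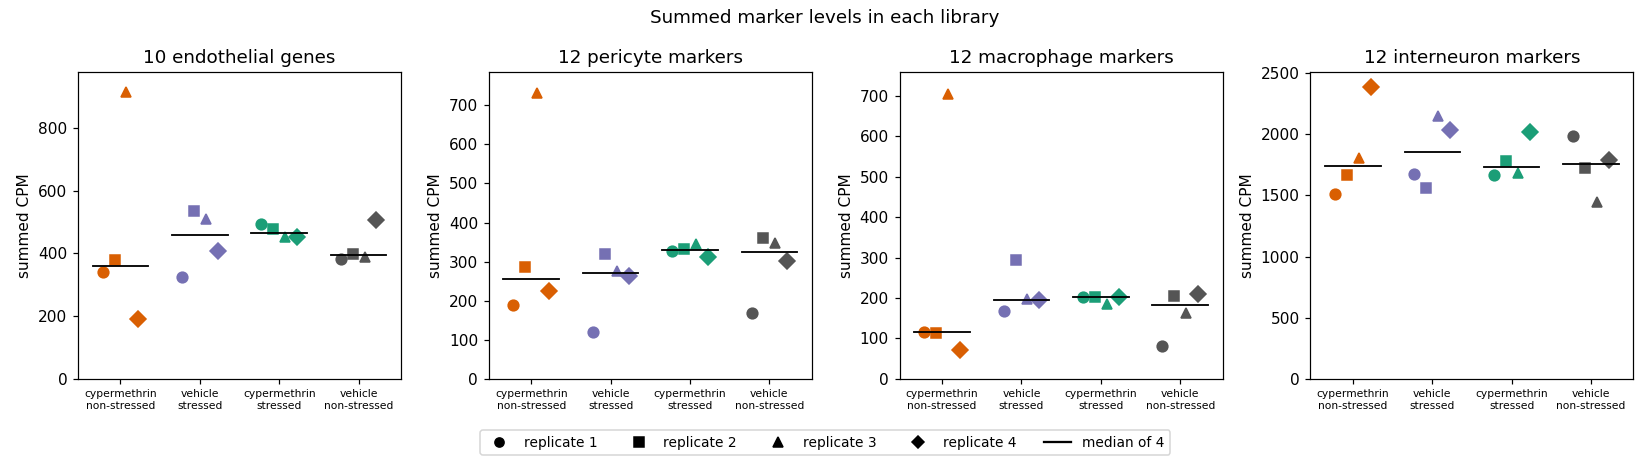
Summed CPM of the 10 endothelial genes and of 12 pericyte, 12 macrophage and 12 interneuron markers in each library, by group, with symbols for replicates and a line at the median of 4. Cypermethrin non-stressed replicate 3 (triangle) stands highest in the first 3 panels and within the range of the others for interneuron markers.

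Across the 16 libraries the 10 genes followed each other weakly. Spearman's rho of log2 CPM was positive for 32 of the 45 gene pairs, with a median of 0.109 and a range of -0.65 to 0.662, and the median was 0.0549 without cypermethrin non-stressed replicates 3 and 4. Kdr followed the other 9 genes most, with a median rho of 0.479, and Flt1, Mfsd2a and Tie1 least, with -0.0647, -0.0176 and 0. With p-values from 100000 permutations of the libraries, adjusted over the 45 pairs, Pearson's r passed 0.05 for 1 pair and Spearman's rho for 0.

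The pair that passed was VE-cadherin and GLUT1. Cdh5 and Slc2a1 had r = 0.798 (permutation p = 0.00054, adjusted p = 0.0243) and rho = 0.662 (permutation p = 0.00605, adjusted p = 0.173) over 16 libraries. Without the 2 libraries farthest from the median of Cdh5, which were cypermethrin non-stressed replicates 3 and 4, r was 0.498 (permutation p = 0.0716) and rho 0.495, both still positive, and r no longer passed 0.05. Receptors of the same family did not follow each other closely: rho was 0.144 for Flt1 and Kdr and 0.026 for Tek and Tie1. The lowest rho was that of Tie1 and Mfsd2a, -0.65 (permutation p = 0.00775, adjusted p = 0.173), with r = -0.54 (permutation p = 0.0652, adjusted p = 0.140). The 2 libraries farthest from the median of Tie1 were vehicle stressed replicate 3 and cypermethrin non-stressed replicate 3. Without them r was -0.561 (permutation p = 0.0183, not adjusted). Without cypermethrin non-stressed replicates 3 and 4 it was -0.549. After centring on the group means, r of Cdh5 and Slc2a1 was 0.867 and that of Tie1 and Mfsd2a was -0.297. Cypermethrin non-stressed replicates 3 and 4 belong to the same group, so centring keeps their weight, and the r of 0.498 above is the value without them.

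**Figure D4:**
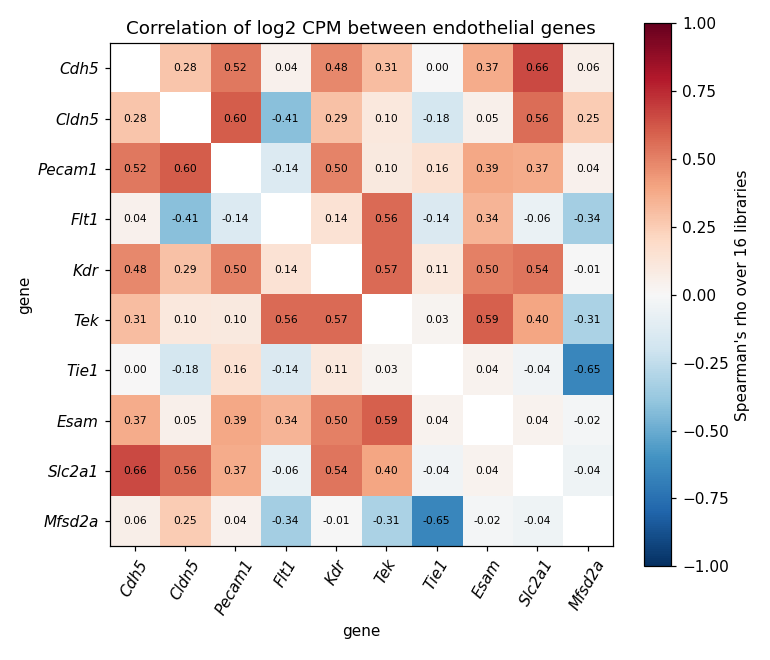
Spearman's rho of log2 CPM between the 10 endothelial genes over 16 libraries, as a heat map with the value in each cell. The highest value is 0.66 for Cdh5 and Slc2a1 and the lowest is -0.65 for Tie1 and Mfsd2a, and apart from that pair the values of Tie1 lie between -0.18 and 0.16.

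Among the genes compared, the one most like the endothelial mean was Slc40a1, which codes for the iron exporter ferroportin. Likeness was measured as Spearman's rho over the 16 libraries between a gene and the mean of the 10 genes' log2 CPM, each centred over libraries. The 10 most alike of 12487 other tested genes are named, and gene models with symbols of the Gm or Rik type were left out. They were Slc40a1 (rho 0.926), Itga4 (0.909), an integrin of leukocytes and other cells, Serping1 (0.903), the C1 inhibitor, Ror1 (0.890), a Wnt receptor, and Gja1 (0.874), the gap junction protein connexin 43. The next were Svil (0.868), Agtr1a (0.848), an angiotensin receptor, Acad9 (0.844), Cxcl12 (0.838), a chemokine that meninges and vessels secrete and migrating interneurons follow, and Dcn (0.835), a collagen-binding proteoglycan of fibroblasts. Agtr1a was low, at 4.23 CPM on average and 0 at the lowest. The median over the 12487 genes was 0.0265. Without cypermethrin non-stressed replicates 3 and 4 the 10 values ran from 0.758 to 0.895. Dcn is on the meningeal fibroblast list, and none of the other 9 is on a list used here.

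By list, the 20 pan-endothelial genes had a median rho of 0.387 with that mean, and 17 of them were above 0. The 19 tested endothelial transcription factor genes had a median of 0.250, and 19 of them were above 0, against 14 of 19 without the 2 extreme libraries. Among the pathway lists described further below, barrier transport genes had a median of 0.263, vesicle genes 0.168 and junction partners 0.144. Tip cell, stalk cell and Notch genes had 0.0779 and barrier Wnt genes 0.0735. The 10 tested VEGF and angiopoietin genes had -0.05, with 2 of them above 0. Of the other cells, 8 pericyte markers had a median of 0.370, 12 macrophage markers 0.327 and 12 meningeal fibroblast markers 0.293, while 12 interneuron markers had -0.0485 and 10 glutamatergic markers -0.271. The 4 tested erythroid markers had 0.179 and the 8 tested radial glia markers 0.0132. Without the 2 extreme libraries the medians were 0.286 for pan-endothelial genes, 0.301 for transcription factors, 0.281 for pericytes, 0.169 for macrophages, 0.338 for meningeal fibroblasts, 0.110 for interneurons, whose sign thus turned, and -0.290 for glutamatergic markers. All these values share the depth and the cell composition of the same libraries.

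No difference of any of the 10 genes passed the test across all genes, for cypermethrin, stress or both. edgeR's quasi-likelihood test was fitted to all 13224 genes and 16 libraries with 1 mean per group, and p-values were adjusted by Benjamini-Hochberg over the 13224 genes. It called 0 of the 10 genes in each of the 6 comparisons, beside 0% of all genes. DESeq2 called 0 of the 10 as well, and over all genes 1 in the comparison of cypermethrin averaged over stress and 0 in the other 5. At an unadjusted p under 0.05 edgeR counted 1 endothelial gene, Tie1, in 1 of the comparisons, and DESeq2 counted Tie1 in 3: cypermethrin without stress, cypermethrin averaged over stress and stress averaged over treatment, beside 5.11%, 5.82% and 6.22% of all genes tested by it. The groups of each gene overlapped in all of the 5 comparisons that set groups side by side. Over all genes tested, groups did not overlap for 2.52% in cypermethrin without stress, 2.9% in stress without cypermethrin, 2.62% under both exposures, 0.0302% in cypermethrin averaged over stress and 0% in stress averaged over treatment, so overlap was the rule in the whole table. Log2 differences below are fitted values with standard errors, and the 3 comparisons against vehicle non-stressed libraries share those 4 libraries. Each standard error was worked back from the test, as the size of the difference over the square root of edgeR's F statistic.

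Cypermethrin without stress gave higher fitted levels for 6 genes and lower ones for 4, with a median log2 difference of 0.14, against 0.03 over all genes. Tie1 averaged 33.4 ± 29.0 CPM in cypermethrin non-stressed libraries and 14.7 ± 4.66 CPM in vehicle non-stressed libraries (SD, n = 4 each), a log2 difference of 1.19 ± 0.57 (SE; edgeR adjusted p = 0.999). It was the 1 of 10 genes with an unadjusted p under 0.05, beside 3.71% of all genes tested. Without cypermethrin non-stressed replicate 3 the Tie1 difference was 0.37, and without replicates 3 and 4 it was 0.16. Esam differed by 0.86 ± 0.72 (edgeR adjusted p = 0.999), and by 0.32 without that replicate 3.

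Pecam1 differed by 0.60 ± 0.51 (edgeR adjusted p = 0.999) and turned to -0.22 without replicate 3 of the cypermethrin non-stressed group. A code in the library descriptions splits the libraries into 7 and 9, and both extreme libraries carry the code of the 9. Within that code the Tie1 difference was 1.38 ± 0.73, and within the other 7 libraries, with 1 of the cypermethrin non-stressed group, it was 0.23 ± 1.43. Mfsd2a, Kdr, Cldn5 and Flt1 had fitted differences below 0, at -0.67 ± 0.63, -0.44 ± 0.39, -0.31 ± 0.43 and -0.10 ± 0.58.

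Stress without cypermethrin gave higher fitted levels for 7 genes and lower ones for 3, with a median of 0.07, against 0.01 over all genes, and 0 of the 10 had an unadjusted p under 0.05, beside 5.08% of all genes. Mfsd2a averaged 30.0 ± 25.4 CPM in vehicle stressed libraries and 16.8 ± 1.39 CPM in vehicle non-stressed libraries (SD, n = 4 each), a log2 difference of 0.83 ± 0.63 (SE; edgeR adjusted p = 0.978). Vehicle stressed replicate 3 decided this value, which was 0.10 without it. Within the code of 9 libraries it was 1.49 ± 0.87 and within the code of 7 it was -0.33 ± 1.198. Flt1 differed by -0.60 ± 0.58 (edgeR adjusted p = 0.985) and Cldn5 by 0.37 ± 0.43 (edgeR adjusted p = 0.986). Without replicate 2 of the vehicle stressed group Flt1 differed by -0.95, and without replicate 3 Cldn5 differed by 0.16.

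Both exposures together gave higher fitted levels for 7 genes and lower ones for 3, with a median of 0.12, against 0.00 over all genes, and 0 of the 10 had an unadjusted p under 0.05, beside 1.49% of all genes. Esam averaged 17.1 ± 3.27 CPM in cypermethrin stressed libraries and 9.38 ± 3.48 CPM in vehicle non-stressed libraries (SD, n = 4 each), a log2 difference of 0.86 ± 0.72 (SE; edgeR adjusted p = 1.000). Leaving out each library in turn gave 0.72 to 1.10 for Esam. Cdh5 averaged 97.8 ± 20.4 CPM in cypermethrin stressed libraries and 72.4 ± 22.9 CPM in vehicle non-stressed libraries, a difference of 0.43 ± 0.37 (SE; edgeR adjusted p = 1.000). Pecam1 differed by 0.40 ± 0.51 (edgeR adjusted p = 1.000), and by 0.76 without vehicle non-stressed replicate 1. The remaining genes lay between -0.18 for Cldn5 and 0.38 for Flt1.

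The interaction, the excess of the joint difference over the sum of the single ones, was below 0 for 7 genes and above 0 for 3, with a median of -0.20, against -0.04 over all genes. Of the 10 genes 0 had an unadjusted p under 0.05, beside 4.7% of all genes. The VEGF receptors had the largest positive values, 1.08 ± 0.82 for Flt1 and 0.62 ± 0.55 for Kdr (SE; edgeR adjusted p = 0.992 and 0.994). Without cypermethrin stressed replicate 1 Flt1 had 0.68, and without vehicle non-stressed replicate 4 Kdr had 0.29. Tie1 had -0.74 ± 0.80 (edgeR adjusted p = 0.994), and this turned to 0.07 without cypermethrin non-stressed replicate 3.

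Averaged over stress, cypermethrin gave higher fitted levels for 7 genes and lower ones for 3, with a median of 0.21, against 0.01 over all genes, and 0 of the 10 had an unadjusted p under 0.05, beside 4.59% of all genes. Tie1 had a median of 16.3 CPM (range 9.47 to 76.5) in 8 cypermethrin libraries and 11.4 CPM (range 8.19 to 19.2) in 8 vehicle libraries, a log2 difference of 0.82 ± 0.40 (SE; edgeR adjusted p = 0.981). Of the 8 cypermethrin libraries, 3 stood above every vehicle library, and without cypermethrin non-stressed replicate 3 the difference was 0.41. Mfsd2a had a median of 15.5 CPM (range 1.40 to 19.2) in cypermethrin libraries and 18.0 CPM (range 7.52 to 66.2) in vehicle libraries, a difference of -0.75 ± 0.45 (SE; edgeR adjusted p = 0.981), which was -0.38 without vehicle stressed replicate 3. Cldn5 had a median of 32.0 CPM in cypermethrin libraries and 34.5 CPM in vehicle libraries, a difference of -0.43 ± 0.31 (SE; edgeR adjusted p = 0.981), which was -0.65 without cypermethrin non-stressed replicate 3.

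Averaged over treatment, stress gave higher fitted levels for 6 genes and lower ones for 4, with a median of 0.11, against 0.00 over all genes, and 0 of the 10 had an unadjusted p under 0.05, beside 5.13% of all genes. Tie1 had a median of 12.3 CPM (range 8.19 to 22.6) in 8 stressed libraries and 17.5 CPM (range 9.62 to 76.5) in 8 non-stressed libraries, a difference of -0.76 ± 0.40 (SE; edgeR adjusted p = 0.960). It was -0.36 without cypermethrin non-stressed replicate 3, and it was -1.195 ± 0.54 within the code of 9 libraries and -0.0108 ± 0.93 within the code of 7. Mfsd2a had a median of 18.2 CPM (range 7.52 to 66.2) in stressed libraries and 15.7 CPM (range 1.40 to 18.2) in non-stressed libraries, a difference of 0.75 ± 0.45 (SE; edgeR adjusted p = 0.960). Of the 8 stressed libraries, 4 stood above every non-stressed one, and without vehicle stressed replicate 3 the difference was 0.38. Kdr differed by 0.32 ± 0.28 (edgeR adjusted p = 0.962), and by 0.17 without vehicle stressed replicate 2.

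**Figure D5:**
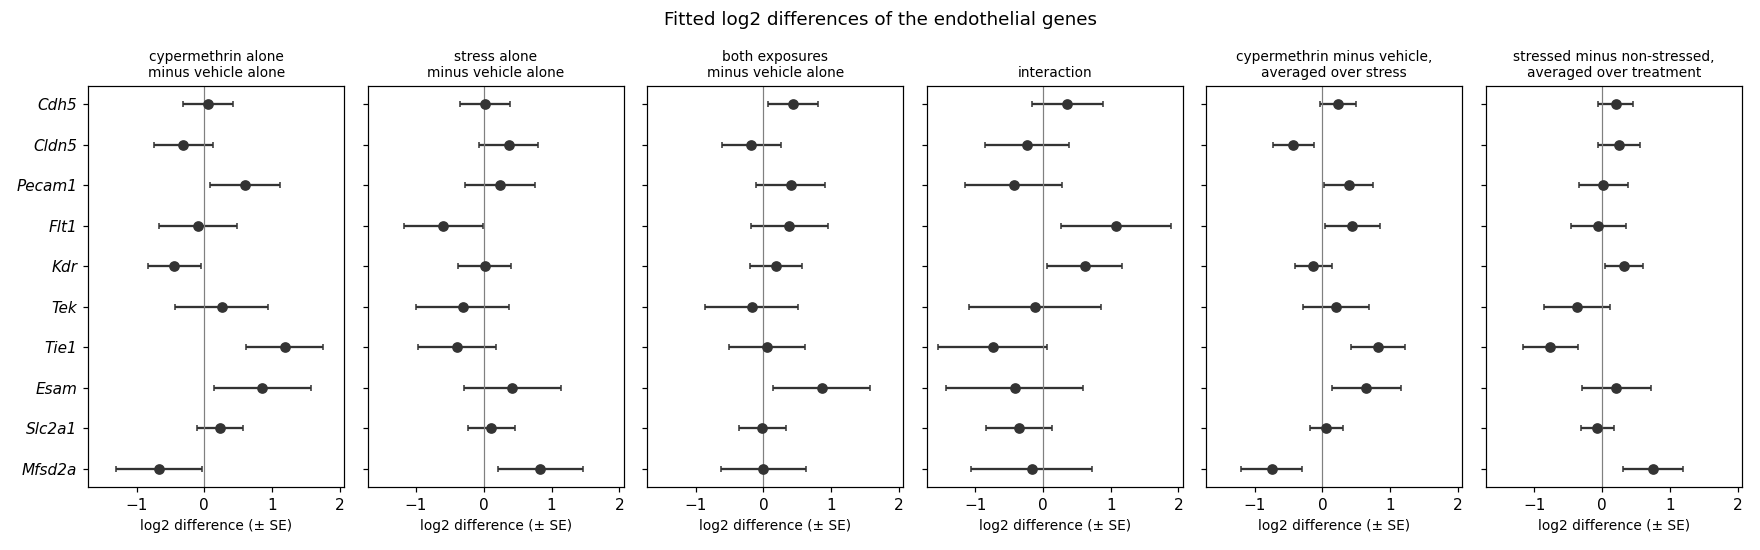
Fitted log2 differences of the 10 endothelial genes with their standard errors (edgeR, 4 libraries per group) in the 6 comparisons, with a line at 0. Tie1 and Mfsd2a lie on opposite sides of 0 in the panels of each exposure alone and of each averaged exposure, and every adjusted p is above 0.05.

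The other genes of the pathways around these members were measured as lists, and in each list the pair of genes with the highest CPM, not corrected for length, is named. Of the 20 pan-endothelial genes all passed the filter, and their sum per library was 393 to 1142 CPM in cypermethrin non-stressed, 416 to 604 CPM in vehicle stressed, 495 to 641 CPM in cypermethrin stressed and 459.9 to 529 CPM in vehicle non-stressed libraries. The highest were Cd93, a lectin-like receptor of endothelial and myeloid cells, at 183 ± 95.2 CPM, and Podxl, a sialomucin of the vessel lumen, at 47.6 ± 18.5 CPM (SD, n = 16 libraries). Fitted differences were above 0 for 13 of the 20 in cypermethrin without stress, 7 in stress without cypermethrin, 14 under both exposures, 10 in the interaction, 15 in cypermethrin averaged over stress (median 0.32) and 7 in stress averaged over treatment (median -0.11), where 47.4% to 52.4% of all genes lay above 0. In cypermethrin averaged over stress edgeR counted 3 of the 20 higher and 0 lower at an unadjusted p under 0.05, beside 4.59% of all genes. The sum of 1142 CPM was that of cypermethrin non-stressed replicate 3. The differences of this list were not summarised without that library, so its part in them was not tested. In each of the 6 comparisons 0 of the 20 were called.

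Of the 20 endothelial transcription factor genes 19 passed the filter and 0 were called in any comparison. At an unadjusted p under 0.05 edgeR counted 2 of them higher and 1 lower in stress without cypermethrin, beside 5.08% of all genes. The counts were the same in cypermethrin averaged over stress, beside 4.59%. It counted 1 higher under both exposures, in the interaction and in stress averaged over treatment, beside 1.49%, 4.7% and 5.13%. Epas1, which codes for the hypoxia factor HIF2α, averaged 96.9 ± 52.2 CPM, and Nr2f2, which codes for the vein and interneuron factor COUP-TFII, averaged 87.8 ± 38.5 CPM (SD, n = 16 libraries). The ETS factors Erg and Fli1 averaged 20.6 and 24.2 CPM and Sox17 12.6 CPM, while Etv2, which starts the endothelial programme earlier in development, had 1 count in all. Of the 12 ligands and co-receptors of the VEGF and angiopoietin systems 10 passed the filter. The co-receptors had the highest CPM, Nrp2 at 73.0 ± 25.2 CPM and Nrp1 at 45.7 ± 25.8 CPM, and both serve neurons as semaphorin receptors too. Among the ligands Vegfa averaged 35.7 CPM, Angpt2 23.3 CPM and Angpt1 9.53 CPM, and 0 of the 10 were called in any comparison.

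Among the 17 tip cell, stalk cell and Notch genes 16 passed the filter, with the highest CPM for the semaphorin receptor gene Plxnd1 at 185 ± 53.6 CPM and the CXCL12 receptor gene Cxcr4 at 66.0 ± 24.5 CPM. Cxcr4 is also a receptor of migrating interneurons. All 13 genes of the barrier Wnt pathway passed, with the highest CPM for Ctnnb1, which codes for β-catenin, at 421 ± 65.9 CPM and the co-receptor gene Lrp6 at 154 ± 55.4 CPM. Lrp6 had a log2 difference of -0.49 ± 0.18 in cypermethrin averaged over stress (edgeR adjusted p = 0.981). Its levels ran from 96.7 to 345 CPM over the libraries. The 13 genes summed highest, to 1357 CPM, in vehicle stressed replicate 1, the library that went against its male label. The Lrp6 difference was not computed without that library. In cypermethrin averaged over stress edgeR counted 1 of these 13 genes higher and 1 lower at an unadjusted p under 0.05, beside 4.59% of all genes. In stress without cypermethrin it counted 1 higher and 0 lower, beside 5.08%. In all 6 comparisons 0 genes of either list were called.

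Of 18 further barrier transport genes 16 passed the filter, with the highest CPM for the lipoprotein receptor gene Lrp8 at 347 ± 46.4 CPM, which neurons use for reelin, and the arginine transporter gene Slc7a1 at 183 ± 46.0 CPM. Between 7 of these 16 (cypermethrin averaged over stress, median -0.02) and 14 of 16 (stress averaged over treatment, median 0.12) had fitted differences above 0, against 51.1% and 50.0% of all genes in the same comparisons, and 0 were called in any comparison. Of 17 junction partners 15 passed, with the highest CPM for Cdh2, the gene of N-cadherin, at 584 ± 113 CPM and Tjp1, the gene of ZO-1, at 270.3 ± 95.9 CPM, both of which neural cells express too. Tjp1 had a difference of 0.59 ± 0.25 in stress without cypermethrin (edgeR adjusted p = 0.965), and 0 of the 15 were called in any comparison. Levels of Tjp1 ran from 158 to 546 CPM over the libraries. The junction partners also summed highest, to 2185 CPM, in vehicle stressed replicate 1, a library of that comparison. The Tjp1 difference was not computed without it. At an unadjusted p under 0.05 edgeR counted 1 of the 15 higher and 0 lower in stress without cypermethrin, beside 5.08% of all genes. In cypermethrin without stress it counted 1 higher, beside 3.71%, and in cypermethrin averaged over stress 2 higher, beside 4.59%. In the interaction it counted 2 lower, beside 4.7%.

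Of 10 symbols of vesicle traffic and leaky vessels 8 were in the table and 6 passed the filter, with the highest CPM for Cav1, the gene of caveolin-1, at 36.6 ± 14.2 CPM and Ehd2, a caveola protein gene, at 16.1 ± 9.60 CPM (SD, n = 16 libraries). Plvap, which marks fenestrated and immature vessels, averaged 2.17 ± 1.75 CPM, and the selectin genes Sele and Selp had 0 counts in every library. At 3 counts, the limit that a count of 0 allows, this leaves room for up to 0.66 to 1.42 CPM, depending on the library. In each of the 6 comparisons 0 of the 6 were called.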

How the data were processed

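RNA of laser-captured cells was sequenced from 16 embryos, 4 per group and 1 per litter. The authors deposited whole-number read counts per gene symbol. Reads were aligned with STAR 2.5 to mm10, per the submitters' processing notes. The counter, its annotation and its use of strand were not given in the sources used here. Groups came from the sample labels, and replicate numbers, given in accession order, pair no samples.

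Genes were kept by filterByExpr (count minimum 10), scaled by TMM and tested with edgeR 4.0.16 in R 4.3.3 (robust quasi-likelihood, 1 mean per group, 16 libraries), with Benjamini-Hochberg adjustment over 13224 genes and calls under 0.05. DESeq2 1.42.0 was an alternative. Log2 CPM used a prior count of 2. Positions and exon lengths came from GENCODE M21, which uses the same build. The fits were tested on simulated counts. Counting error limits low values: the spread between embryos sets the standard errors, 0.34 to 0.72 for the 10 genes in single-group comparisons.

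The members and lists were chosen with earlier results of these data known. All members are named, with the 3 of smallest p per comparison in full, the 2 most abundant genes of each other list and any called gene. Erg, Fli1, Sox17, Etv2, the VEGF and angiopoietin ligands, Plvap and the selectins were added after their values were seen. The differences printed for Lrp6 and Tjp1 were not set by this rule.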

Additional observations from a re-analysis of the deposited data

Results flagged for a closer look

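In the group of 4 cypermethrin non-stressed libraries, the Tie1 level of replicate 3 stood apart from the rest by Dixon's criterion, at 76.5 CPM, where the other 3 libraries had 15.7 to 24.3 CPM. Its gap was 0.859 of the range of the group. In the vehicle non-stressed group the summed level of the 10 endothelial genes in replicate 4 stood apart, at 505 CPM, where the other 3 libraries had 381 to 399 CPM, a gap of 0.858 of the range. These 2 were found among 44 combinations of a gene, or the sum, with a group, and at the 95% level chance flags about 1 in 20 groups.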

How the results depend on the processing

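Under every alternative 0 of the 10 endothelial genes were called: DESeq2, RLE size factors, no filter on low counts, the library code as a term or each code alone, fits to the compared groups alone, each library left out, and the added fit without cypermethrin non-stressed replicates 3 and 4, chosen after seeing the data. Over all genes, at most 45 were called in a comparison within the first code alone, 1 with DESeq2, 1 without vehicle stressed replicate 3, and 0 in the other fits. Of all comparisons of an alternative with the value as reported, 593 were counted as unchanged, 9 reversed and 2 moved. A fitted difference counted as unchanged if it kept its sign and its lack of a call. Summed levels did so within the SD of their group, and the median rho within a fixed margin. The 593 include large shifts, such as Tie1 in cypermethrin without stress, from 1.19 to 0.16 without both extreme libraries. The count therefore does not measure how far values moved. Among the 7 libraries of the first code alone, reversals were Pecam1 in cypermethrin without stress (-0.26), Mfsd2a in stress without cypermethrin (-0.33), Kdr (-0.15) and Tie1 (0.32) in the interaction, and Mfsd2a in stress averaged over treatment (-0.0764). Among the 9 of the second code alone it was Cdh5 under both exposures (-0.0913). With each library left out in turn, Pecam1 in cypermethrin without stress ran from -0.22 to 0.96 and the Tie1 interaction from -1.001 to 0.0676, and without both extreme libraries that interaction was 0.29. The median rho between the genes was 0.109 as reported, 0.0549 without both extreme libraries, 0.215 with CPM over total counts and 0.274 after centring on group means. The cause was not tested. No paired analysis was possible because the replicate numbers follow accession order. Depth limits Tek, Esam and Mfsd2a, which fell to 2 or 3 counts in single libraries.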
